A study of Mus musculus with 6 samples.

Results

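The genes described here are 32 genes for the later steps of branched-chain amino acid breakdown and for fatty acid oxidation in mitochondria, out of 49585 genes listed for each library. Cpt1c, which lies outside mitochondria, is counted among them with its family. They were chosen by name from a list of pathway enzymes, and each of the 32 names was found once and passed the filter on low counts, which left 14020 genes for testing. RNA-seq was done on mGB2, a mouse glioblastoma cell line described as glioblastoma stem cells, in 3 libraries of Bcat1-KO cells and 3 libraries of control cells. Neither group was treated. Both were cultured attached to a matrix-coated surface in a stem cell medium with N2, B27, EGF and FGF and collected when confluent, and the control is labelled NT. The labels do not give the way Bcat1 was disrupted, the number of clones or whether replicates were separate cultures, and every p-value rests on library-to-library spread that may be technical. The comparison asks which RNAs differ when Bcat1, the cytosolic aminotransferase for leucine, isoleucine and valine, is targeted.

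Branched-chain amino acids lose their amino group to give ketoacids, which a mitochondrial dehydrogenase complex turns into branched acyl-CoAs. From there each carbon chain has its own route. A flavin-dependent acyl-CoA dehydrogenase introduces a double bond, a hydratase adds water, and later steps yield acetyl-CoA, acetoacetate or propionyl-CoA. Fatty acids enter mitochondria as carnitine esters and are shortened by a cycle of the same chemistry, dehydrogenation, hydration, a further oxidation and thiolysis. The acyl-CoA dehydrogenases of both pathways hand their electrons to electron transfer flavoprotein and its ubiquinone oxidoreductase, and several enzymes serve both pathways. In brain, fatty acid oxidation is known mainly from astrocytes and neural stem cells.

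The libraries held 35608024 to 37800648 counts on the gene strand in Bcat1-KO and 29543157 to 33550412 in control, so 3 counts correspond to 0.0794 to 0.0843 CPM in a Bcat1-KO library and 0.0894 to 0.102 CPM in a control library. Bcat1 RNA was present in both groups, at 168 ± 11.5 CPM in Bcat1-KO and 223 ± 9.26 CPM in control (mean ± SD, n = 3 each), and the groups did not overlap. Counts over the whole gene do not show whether an edited exon is present. Reads of the mitochondrial chromosome took 1.31% to 1.94% of the counts in Bcat1-KO and 1.51% to 2.28% in control. The marker counts that follow cover few genes each. Over all tested genes 32% were called higher in Bcat1-KO and 30.3% lower. Of the neural stem cell markers, which check the glioblastoma stem cell label, 8 of 10 were higher in Bcat1-KO, with summed levels of 1920 to 2180 CPM in Bcat1-KO and 1290 to 1340 CPM in control, and Prom1 was at 0 in control. Astrocyte markers moved with the groups too. Their 9 genes summed to 1510 to 1560 CPM in Bcat1-KO and 497 to 553 CPM in control, 6 of the 7 tested were higher, and Gjb6 was at 0 in both. The 10 oligodendrocyte lineage markers summed to 953 to 1070 CPM in Bcat1-KO and 383 to 417 CPM in control, with Mog and Mag at 0 in both, and 4 of the 6 tested were higher and none lower. The 10 neuronal markers went both ways. They summed to 409 to 454 CPM in Bcat1-KO and 215 to 232 CPM in control, with 3 of the 5 tested higher, 1 lower and Stmn2, Nefl and Nefm at 0 in both. The lower one was Rbfox3, a splicing factor of mature neurons named here after its values were seen, at 0.0719 ± 0.0415 CPM in Bcat1-KO and 33.1 ± 0.667 CPM in control. Microglial and immune markers summed to at most 3.87 CPM in Bcat1-KO and 4.32 CPM in control, with Itgam at 0 in both, and the 1 tested was not called. Endothelial and mural markers summed to at most 1.20 CPM in Bcat1-KO and 8.60 CPM in control, with Cldn5 at 0 in both and 3 of the 4 tested lower in Bcat1-KO. The part of these marker differences in the changes of the oxidation enzymes was not tested. In bulk RNA, a change in the share of cells and a change in RNA per cell cannot be told apart.

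In Bcat1-KO cells most of these enzymes had more RNA, with the steepest rises in the medium-chain and long-chain part of fatty acid oxidation, while a few partner enzymes of the same route fell. Of the 32 genes, 21 were higher in Bcat1-KO, 7 were lower and 4 did not pass the test (edgeR's quasi-likelihood test at a threshold of 0.05 after Benjamini-Hochberg adjustment over all tested genes). Over all tested genes, 32% were higher, 30.3% were lower and 62.3% changed in either direction. The median log2 fold change was 0.47 over the 32 genes and 0.01 over all tested genes. The Bcat1-KO and control libraries did not overlap for 28 of the 32, 21 of them higher and 7 lower. Over all tested genes the share was 67.7%, with 4928 of the 14020 higher and 4561 lower. Acadm, Acadl and Hadhb were the 3 genes with a rise of at least 2-fold, a size that 9.76% of all tested genes reached. None of the 7 falls reached 2-fold, whereas 1322 of the 14020 tested genes were lower by at least 2-fold. Among the 15 genes of the branched-chain and propionyl-CoA steps 9 were higher and 3 lower, and among the 17 genes of fatty acid oxidation and electron transfer 12 were higher and 4 lower. Tested by edgeR against a 1.5-fold threshold, 8 of the 32 were higher and 0 lower (1 at an unadjusted p under 0.05), and over all tested genes 11.2% were higher and 10.6% lower.

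**Figure D1:**
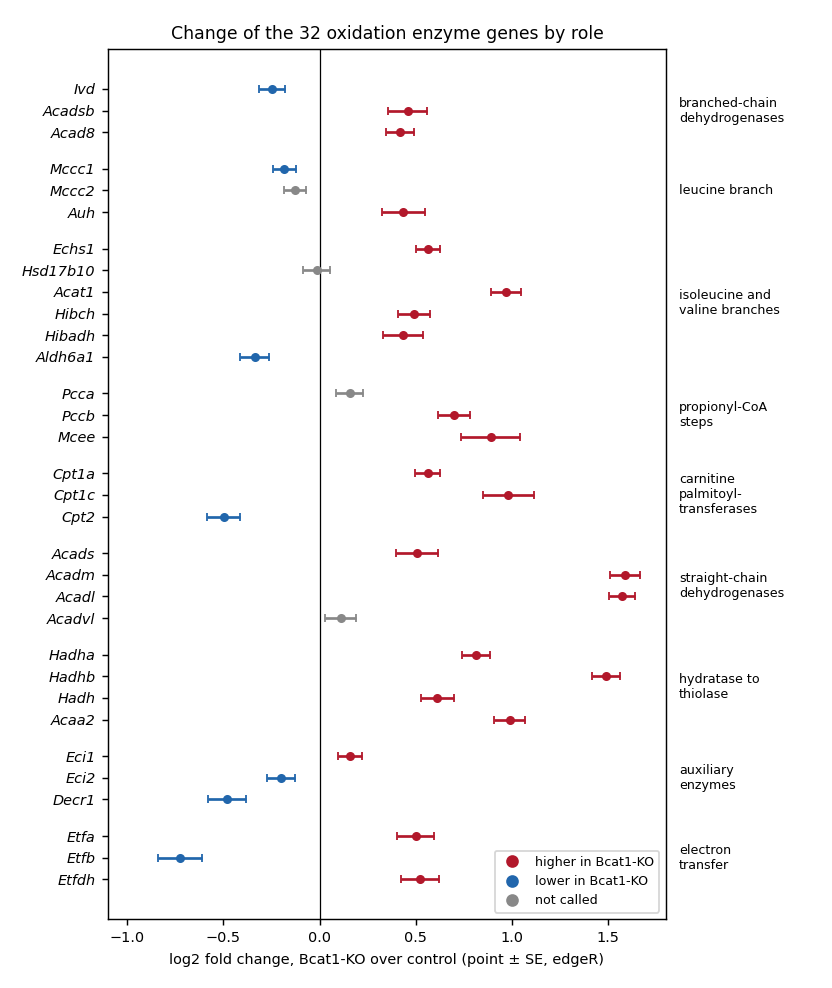
Log2 fold change of each of the 32 enzyme genes, Bcat1-KO over control, on the horizontal axis (points, with bars of ± SE from edgeR), grouped down the page by role. Red points mark the 21 higher genes, blue points the 7 lower genes and grey points the 4 not called; Acadm, Acadl and Hadhb lie farthest to the right and Etfb farthest to the left.

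The stretches in front of Acadm and Acadl, which rose most, between Hadhb, which followed, and its divergent neighbour Hadha, and in front of Etfb and Cpt2, which fell most, are shown to place these changes on the genome. For the single genes they are the 250 bases before the RefSeq start in GRCm38.p6. For the pair it is the whole gap of 85 bases between the gene ends in the deposited tables. Each reads 5′ to 3′ on the strand given, and capitals mark matches, on either strand, to AGGTCA, the core element bound by many nuclear receptors, or GGGCGG, the GC box.
Acadm, chr3:153944644-153944893, - strand: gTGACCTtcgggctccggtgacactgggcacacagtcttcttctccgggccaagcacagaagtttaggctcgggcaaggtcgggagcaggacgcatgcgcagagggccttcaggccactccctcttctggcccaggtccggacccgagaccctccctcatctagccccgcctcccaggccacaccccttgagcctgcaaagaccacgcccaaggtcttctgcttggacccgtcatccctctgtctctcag
Acadl, chr1:66863310-66863559, - strand: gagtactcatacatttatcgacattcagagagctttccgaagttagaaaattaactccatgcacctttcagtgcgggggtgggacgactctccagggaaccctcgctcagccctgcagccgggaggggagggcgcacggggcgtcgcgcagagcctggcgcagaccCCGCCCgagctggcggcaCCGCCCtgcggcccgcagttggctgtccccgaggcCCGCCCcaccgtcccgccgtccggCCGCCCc
Hadha to Hadhb, chr5:30155163-30155247, + strand: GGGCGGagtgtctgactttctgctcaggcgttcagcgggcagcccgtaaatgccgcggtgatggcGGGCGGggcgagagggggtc
Etfb, chr7:43443822-43444071, + strand: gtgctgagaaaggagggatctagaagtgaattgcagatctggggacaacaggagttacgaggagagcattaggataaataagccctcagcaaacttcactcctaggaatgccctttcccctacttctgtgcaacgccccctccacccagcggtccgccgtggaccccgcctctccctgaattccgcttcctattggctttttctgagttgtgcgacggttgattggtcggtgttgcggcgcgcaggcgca
Cpt2, chr4:107923590-107923839, - strand: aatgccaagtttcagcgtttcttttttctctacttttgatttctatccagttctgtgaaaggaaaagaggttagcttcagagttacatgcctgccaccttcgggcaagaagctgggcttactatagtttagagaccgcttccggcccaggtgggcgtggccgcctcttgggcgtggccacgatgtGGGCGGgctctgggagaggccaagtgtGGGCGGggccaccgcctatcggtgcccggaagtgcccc

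Acadm had 1 match to AGGTCA in this stretch, Acadl had 4 matches to GGGCGG, the Hadha to Hadhb gap had 2, Cpt2 had 2 and Etfb had none of either, although a GGGCGG lies just past the RefSeq start of Etfb, outside the stretch printed. Windows of 300 bases, running to 50 bases past the start, were found for 29 of the 32 genes, in 31 windows. AGGTCA stood in 9 of these 31 (29.0%) and in 16.3% of all 32851 windows, and GGGCGG in 22 of 31 (71.0%) and in 35.7% of all windows. The AGGTCA windows belonged to 8 genes: Acadm, Acadvl, Aldh6a1, Cpt1a, Cpt1c, Echs1, Hibadh and Pcca. Of these, Acadvl and Pcca were not called and Aldh6a1 was lower in Bcat1-KO. CACGTG, the E-box, stood in 1 of 31, that of Mccc2, and in 7.15% of all windows. TNAAGGTCA, the extended element of estrogen-related receptors, which contains AGGTCA, stood in 0 of 31 and in 1.28% of all windows. These matches describe letters only.

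The straight-chain acyl-CoA dehydrogenases start each round of fatty acid oxidation, and each prefers a different chain length. Acadm, the medium-chain enzyme (ENSMUSG00000062908.12, chromosome 3 from 153922357 to 153944632, mm10), had 71.8, 64.8 and 66.4 CPM in the Bcat1-KO libraries, against 23.9, 23.0 and 20.5 CPM in the control libraries. Acadl, the long-chain enzyme (chromosome 1 from 66830839 to 66863277), had 162, 158 and 165 CPM in Bcat1-KO, against 50.8, 57.3 and 55.0 CPM in control. Every Bcat1-KO library held more than every control library for both genes, with little spread within a group. Acadm rose 3.01-fold (log2 1.59, SE 0.08, adjusted p = 7.63e-09, edgeR) and Acadl 2.97-fold (log2 1.57, SE 0.07, adjusted p = 2.03e-09, edgeR). Acads, which acts on short chains, rose less, to 105 ± 18.5 CPM in Bcat1-KO against 74.1 ± 4.58 CPM in control (log2 0.51, SE 0.11, adjusted p = 0.0015, edgeR), and Bcat1-KO replicate 1 was well above the others with 126 CPM against 91.3 and 98.2 CPM. Without that library the log2 fold change of Acads was 0.34. Acadvl, the membrane-bound enzyme for very long chains, had 121, 97.8 and 103 CPM in Bcat1-KO and 94.9, 101 and 103 CPM in control, and these values overlapped (log2 0.11, SE 0.08, adjusted p = 0.27, edgeR). The 3′ part of Acadvl overlaps Dvl2 on the other strand.

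Hadha and Hadhb encode the alpha and beta chains of the mitochondrial trifunctional protein, which hydrates, oxidises and thiolytically cleaves long chains. Hadhb (chromosome 5 from 30155248 to 30184593) had 86.6, 88.3 and 85.6 CPM in Bcat1-KO, against 28.1, 31.8 and 32.9 CPM in control. Hadha, its divergent neighbour (chromosome 5 from 30118304 to 30155162), had 244, 257 and 279 CPM in Bcat1-KO, against 137, 154 and 153 CPM in control. Both sets were apart, and the rise was 2.81-fold for Hadhb (log2 1.49, SE 0.07, adjusted p = 6.79e-09, edgeR) and 1.76-fold for Hadha (log2 0.81, SE 0.07, adjusted p = 2.06e-06, edgeR). Neighbouring genes moved too. The local median, here the median log2 fold change of a window of 51 tested genes along the chromosome with the gene itself included, was 0.49 around this pair. It entered the fit as a fixed value, so p-values relative to it leave out its own error. Relative to the local median Hadhb was at 0.996 and Hadha at 0.32. The local median was 0.40 around Acadm and 0.04 around Acadl, which were at 1.19 and 1.53 relative to it. On that scale the rise of Acadl exceeded that of Acadm. Hadhb shares a stretch of 1428 bases at 99.8% identity with the processed pseudogene Gm13910, so reads can be divided or lost between them; Gm13910 was counted at 0.608 CPM in Bcat1-KO and 0.0892 CPM in control.

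The soluble enzymes of the later steps rose as well. Acaa2, the thiolase for shorter chains (chromosome 18 from 74779197 to 74806207), had 56.5, 48.1 and 50.6 CPM in Bcat1-KO, against 24.5, 27.2 and 26.5 CPM in control, a 1.99-fold rise (log2 0.99, SE 0.08, adjusted p = 6.82e-07, edgeR). Hadh, the hydroxyacyl-CoA dehydrogenase for short and medium chains, averaged 138 ± 16.1 CPM in Bcat1-KO and 90.0 ± 5.61 CPM in control (log2 0.61, SE 0.09, adjusted p = 7.33e-05, edgeR). All 4 genes of the hydratase, hydroxyacyl dehydrogenase and thiolase steps were therefore higher, with no overlap between groups. Relative to the local median the log2 value was 0.36 for Hadh and 0.75 for Acaa2.

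**Figure D2:**
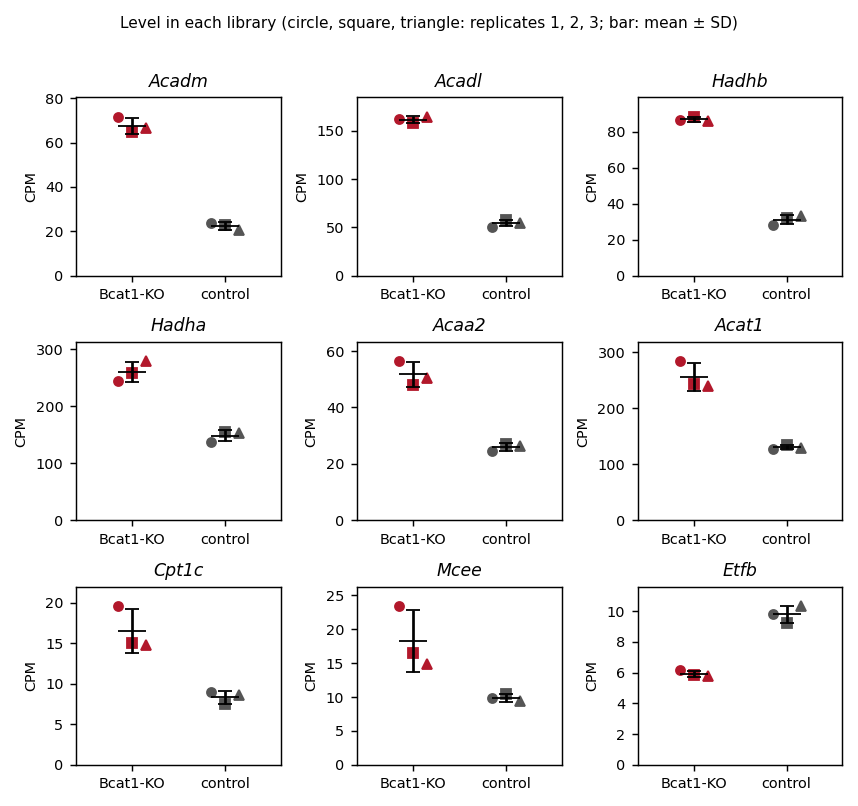
CPM in each library (circle, square and triangle for replicates 1, 2 and 3, with bars of mean ± SD, n = 3) for 9 genes, Bcat1-KO at the left and control at the right of each panel. The Bcat1-KO points lie above all control points for Acadm, Acadl, Hadhb, Hadha, Acaa2, Acat1, Cpt1c and Mcee, and below them for Etfb.

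Entry into mitochondria runs through carnitine palmitoyltransferases, and here the outer and inner membrane enzymes changed in opposite directions. Cpt1a, the outer membrane enzyme of most tissues and the step that malonyl-CoA inhibits, had 146, 149 and 157 CPM in Bcat1-KO, against 96.8, 103 and 106 CPM in control, a 1.48-fold rise (log2 0.56, SE 0.06, adjusted p = 1.39e-05, edgeR). Cpt1c, the brain form, which lies in the endoplasmic reticulum and has little catalytic activity, had 19.6, 15.1 and 14.7 CPM in Bcat1-KO, against 8.97, 7.44 and 8.64 CPM in control, a 1.98-fold rise (log2 0.98, SE 0.13, adjusted p = 5.54e-05, edgeR). The groups were apart for both, although Bcat1-KO replicate 1 stood above the other Bcat1-KO libraries for Cpt1c. Cpt2, the inner membrane enzyme that regenerates acyl-CoA, was lower, with 15.2 ± 0.811 CPM in Bcat1-KO and 21.5 ± 0.856 CPM in control (log2 -0.50, SE 0.09, adjusted p = 0.000342, edgeR).

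The auxiliary enzymes, which let unsaturated chains enter the cycle, changed little or fell. Decr1, the dienoyl-CoA reductase, had 13.4, 14.6 and 13.01 CPM in Bcat1-KO, against 17.2, 20.2 and 19.8 CPM in control (log2 -0.48, SE 0.10, adjusted p = 0.00113, edgeR), and -0.31 relative to the local median. Eci2, an isomerase of mitochondria and peroxisomes, was lower by a small margin, with 92.7, 81.9 and 80.4 CPM in Bcat1-KO and 92.2, 102 and 99.1 CPM in control, and its groups overlapped (log2 -0.20, SE 0.07, adjusted p = 0.031, edgeR). Eci1, the mitochondrial isomerase, had 88.0, 93.0 and 95.6 CPM in Bcat1-KO and 79.7, 85.1 and 82.9 CPM in control (log2 0.16, SE 0.06, adjusted p = 0.0435, edgeR). Both calls depended on the setting: over the alternatives other than the fold threshold the adjusted p ran from 0.0147 to 0.95 for Eci1, which was at -0.007 on the log2 scale relative to the local median, and from 0.000848 to 0.183 for Eci2. Without control replicate 2 it was 0.0883 for Eci1 and 0.105 for Eci2, and each call was also lost without either of Bcat1-KO replicates 2 and 3 and without control replicate 3; that of Eci1 was lost without control replicate 1 as well.

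Electrons from the flavin-dependent acyl-CoA dehydrogenases pass through the Etfa and Etfb heterodimer, and its chains moved apart. Etfa (chromosome 9 from 55454508 to 55512243) had 90.1, 71.4 and 70.2 CPM in Bcat1-KO, against 52.1, 57.8 and 54.0 CPM in control (log2 0.50, SE 0.09, adjusted p = 0.000696, edgeR). Etfb (ENSMUSG00000004610.4, chromosome 7 from 43444083 to 43457800) had 6.15, 5.85 and 5.75 CPM in Bcat1-KO, against 9.79, 9.22 and 10.4 CPM in control, and was 1.65-fold lower (log2 -0.73, SE 0.11, adjusted p = 0.000155, edgeR). The groups were apart for each chain, and Etfb had the largest fall of the 32 genes. Etfdh, the oxidoreductase that passes these electrons to ubiquinone, rose with Etfa, to 57.3 ± 8.59 CPM in Bcat1-KO against 39.9 ± 2.15 CPM in control (log2 0.52, SE 0.10, adjusted p = 0.000649, edgeR). Relative to the local median the log2 value was 0.27 for Etfa and -1.0 for Etfb. Etfb shares a strand and 626 bases of transcript at 99.7% identity with Gm45233, so its reads can go uncounted where both genes claim them, and the effect on its level was not tested.

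On the branched-chain side, each of the 3 amino acids has its own acyl-CoA dehydrogenase. Ivd, the leucine enzyme, was lower, at 75.4 ± 5.71 CPM in Bcat1-KO and 89.5 ± 1.57 CPM in control (log2 -0.25, SE 0.07, adjusted p = 0.00793, edgeR). Acadsb, the isoleucine enzyme, and Acad8, the valine enzyme, were higher. Acadsb had 50.4, 39.3 and 38.5 CPM in Bcat1-KO, against 29.5, 32.3 and 31.5 CPM in control (log2 0.46, SE 0.10, adjusted p = 0.00205, edgeR), and without Bcat1-KO replicate 1 its log2 fold change was 0.30. Acad8 averaged 35.3 ± 0.952 CPM in Bcat1-KO and 26.4 ± 1.63 CPM in control (log2 0.42, SE 0.07, adjusted p = 0.000422, edgeR). Relative to the local median the log2 values were -0.42 for Ivd, 0.30 for Acadsb and 0.28 for Acad8, each still past the threshold.

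The leucine route goes on through methylcrotonyl-CoA carboxylase, built from Mccc1 and Mccc2, and the hydratase Auh. Mccc1, the biotin-carrying chain, had 46.7, 47.0 and 46.4 CPM in Bcat1-KO, against 53.1, 52.7 and 53.2 CPM in control, a small fall with almost no spread within a group (log2 -0.18, SE 0.06, adjusted p = 0.0194, edgeR). This call was lost when limma-trend was run on TPM (adjusted p = 0.159), under a gene length offset (0.0859) and without control replicate 3 (0.0599). Mccc1 was itself the local median of its window, so its value relative to it was 0, and the adjusted p over the alternatives ran from 0.00689 to 1. Mccc2 had 66.8, 70.0 and 66.0 CPM in Bcat1-KO and 73.4, 73.8 and 74.6 CPM in control, and did not pass the test although the groups were apart (log2 -0.13, SE 0.06, adjusted p = 0.081, edgeR). It passed without Bcat1-KO replicate 1 (adjusted p = 0.0438), was at 0.11 on the log2 scale relative to the local median, and had adjusted p-values of 0.038 to 0.247 over the alternatives other than the fold threshold. Auh rose to 16.8 ± 2.27 CPM in Bcat1-KO against 12.4 ± 0.622 CPM in control (log2 0.44, SE 0.11, adjusted p = 0.00546, edgeR), or 0.78 on the log2 scale relative to the local median.

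In the isoleucine and valine routes 4 of 6 genes were higher and 1 lower. Acat1, the mitochondrial acetoacetyl-CoA thiolase that ends isoleucine breakdown and also works in ketone body metabolism (chromosome 9 from 53580522 to 53610382), had 284, 243 and 239 CPM in Bcat1-KO, against 127, 134 and 129.5 CPM in control, a 1.96-fold rise (log2 0.97, SE 0.08, adjusted p = 5.75e-07, edgeR). All Bcat1-KO libraries lay far above all control libraries. The local median around Acat1 was 0.32, and relative to it the log2 value of Acat1 was 0.655. Echs1, the short-chain enoyl-CoA hydratase used by both routes and by fatty acid oxidation, rose to 118 ± 3.75 CPM in Bcat1-KO against 79.5 ± 1.77 CPM in control (log2 0.56, SE 0.06, adjusted p = 7.33e-06, edgeR). Hibch, the valine route's thioester hydrolase, rose to 36.6 ± 2.83 CPM in Bcat1-KO against 26.1 ± 1.53 CPM in control (log2 0.49, SE 0.08, adjusted p = 0.00027, edgeR).

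Hibadh, the dehydrogenase that follows Hibch, had 86.0, 66.2 and 63.9 CPM in Bcat1-KO, against 50.6, 55.4 and 54.1 CPM in control (log2 0.43, SE 0.10, adjusted p = 0.00328, edgeR). Bcat1-KO replicate 1 was the high library, the log2 fold change was 0.27 without it, and the gene did not pass relative to the local median (log2 0.19, adjusted p = 0.145). Aldh6a1, the semialdehyde dehydrogenase that makes propionyl-CoA from valine, was lower, at 52.5 ± 4.77 CPM in Bcat1-KO and 66.3 ± 2.03 CPM in control (log2 -0.34, SE 0.08, adjusted p = 0.00216, edgeR). It lies on chromosome 12 among genes with a local median of -0.55, and relative to them its log2 value was 0.22 (adjusted p = 0.0292). Hsd17b10, the isoleucine route's hydroxyacyl-CoA dehydrogenase, had 65.2, 59.7 and 59.3 CPM in Bcat1-KO and 58.8, 64.7 and 62.6 CPM in control, and did not pass the test (log2 -0.02, SE 0.07, adjusted p = 0.853, edgeR). Relative to a local median of 0.38 on chromosome X it was lower (log2 -0.40, adjusted p = 0.000395).

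Propionyl-CoA from isoleucine, valine and odd-chain fatty acids is carboxylated by the Pcca and Pccb enzyme and then epimerised by Mcee on its way to succinyl-CoA. Pccb had 32.6, 30.8 and 31.4 CPM in Bcat1-KO, against 17.8, 21.1 and 19.5 CPM in control, with the groups apart (log2 0.70, SE 0.08, adjusted p = 1.84e-05, edgeR), and a log2 value of 0.32 relative to the local median. Pcca, its partner, had 73.8, 70.8 and 69.3 CPM in Bcat1-KO and 59.4, 69.4 and 63.2 CPM in control, which overlapped (log2 0.16, SE 0.07, adjusted p = 0.0757, edgeR). It passed without control replicate 2 (adjusted p = 0.0461) and relative to the local median (log2 0.38, adjusted p = 0.000805), and its adjusted p reached 0.304 over the alternatives other than the fold threshold. Mcee had 23.5, 16.6 and 14.9 CPM in Bcat1-KO, against 9.83, 10.4 and 9.36 CPM in control, a 1.85-fold rise with the groups apart and with replicate 1 highest in Bcat1-KO (log2 0.89, SE 0.16, adjusted p = 0.000376, edgeR).

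Partner chains assemble into one enzyme, and their RNA ratio within a library was compared on the authors' TPM values. These are per exonic length and do not depend on the scaling between libraries. Exonic length can exceed that of a transcript: Hadhb has 6595 bases, and its longest coding transcript has 2048. The size of a ratio therefore depends on the annotation, and the log2 difference between groups does not. The Etfa to Etfb ratio was 9.29, 7.74 and 7.75 in the Bcat1-KO libraries, against 3.37, 3.98 and 3.31 in the control libraries. The Pcca to Pccb ratio was 1.21, 1.22 and 1.17 in Bcat1-KO, against 1.78, 1.75 and 1.72 in control. For Hadha to Hadhb it was 2.13, 2.20 and 2.46 in Bcat1-KO, against 3.69, 3.67 and 3.51 in control. None of these groups overlapped. The mean log2 ratio differed by 1.22 for Etfa to Etfb, -0.54 for Pcca to Pccb and -0.68 for Hadha to Hadhb, Bcat1-KO minus control. Mccc1 to Mccc2 differed by only -0.06 on the log2 scale, and Cpt1c to Cpt1a, 2 forms of one family, by 0.41. Both values leaned on single libraries: without Bcat1-KO replicate 2 the difference was -0.034 for Mccc1 to Mccc2, and without Bcat1-KO replicate 1 it was 0.255 for Cpt1c to Cpt1a. The exact two-sided permutation test gave p = 0.1 for each of the 5 ratios, and 0.1 after Benjamini-Hochberg adjustment, which is the smallest p that 3 against 3 libraries allow, so none can pass 0.05.

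**Figure D3:**
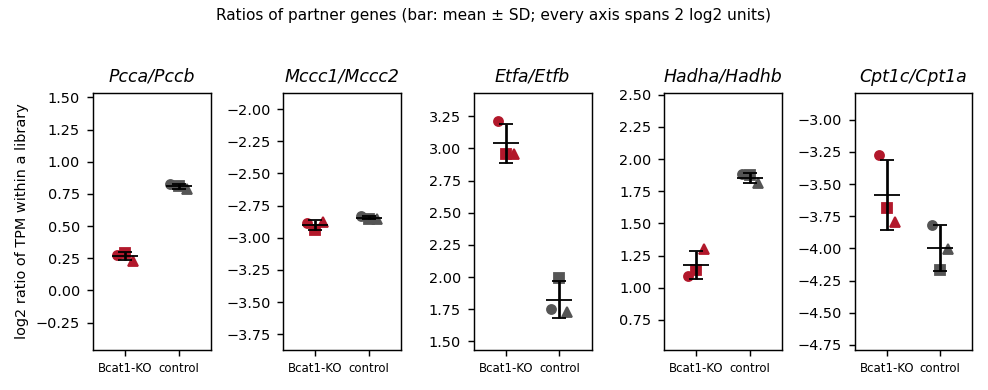
Log2 ratio of TPM within a library for 5 pairs of genes (points per library, bars of mean ± SD, n = 3), Bcat1-KO at the left and control at the right of each panel, with every vertical axis spanning 2 log2 units. Etfa/Etfb was higher in Bcat1-KO, Pcca/Pccb and Hadha/Hadhb were lower, and Mccc1/Mccc2 differed by only -0.06.

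Levels of different genes were set side by side on the TPM scale, which divides by exonic length, so their order depends in part on that length. Auh, with 9580 exonic bases, had 16.8 CPM in Bcat1-KO and 12.4 CPM in control. Etfb, with 1164, had 5.92 CPM in Bcat1-KO and 9.79 CPM in control, yet ranked above Auh by TPM. In Bcat1-KO the most abundant of the 32 RNAs were Eci1 at 277 ± 15.97 TPM, Acadl at 264 ± 6.51 TPM, Acat1 at 222 ± 17.5 TPM and Hsd17b10 at 155 ± 5.52 TPM. Eci1 and Acadl did not differ beyond their spread in that order. In control they were Eci1 at 239 ± 5.95 TPM, Hsd17b10 at 151 ± 6.13 TPM, Eci2 at 118 ± 5.14 TPM and Acadvl at 117 ± 4.48 TPM, and Eci2 and Acadvl lay within their spread. Acadl stood at rank 2 in Bcat1-KO and 9 in control, Acadm at 15 and 23, and Hadhb at 20 and 28, whereas Etfb stood at 28 in Bcat1-KO and 20 in control. Auh, at 5.73 ± 0.697 TPM in Bcat1-KO and 4.09 ± 0.21 TPM in control, was the lowest by TPM in both, and Cpt1c was next. The 32 genes summed to 2654, 2485 and 2493 TPM in the Bcat1-KO libraries, against 1750.5, 1855 and 1829 TPM in the control libraries, and every Bcat1-KO sum was above every control sum.

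The libraries of a group were close to each other for most of these genes. The highest over the lowest CPM within a group had a median over the 32 genes of 1.14 in Bcat1-KO and 1.11 in control. The widest Bcat1-KO ratio was 1.58, for Mcee, and the widest control ratio was 1.20, for Cpt1c. Bcat1-KO replicate 1 was the highest of the 3 Bcat1-KO libraries for 22 of the 32 genes, and for 41.0% of all tested genes. Control replicate 2 was the highest control library for 20 of the 32 genes, and for 31.1% of all tested genes. Bcat1-KO replicate 1 lay from 1.17 to 1.42 times above the next Bcat1-KO library for Acat1, Acadvl, Hadh, Etfa, Etfdh, Acadsb, Acads, Hibadh, Cpt1c and Mcee, and was not the highest for Acadl, Hadhb and Cpt1a. Without that library 21 of the 32 genes were higher and 8 lower, and Acadvl was at -0.008 on the log2 scale.

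**Figure D4:**
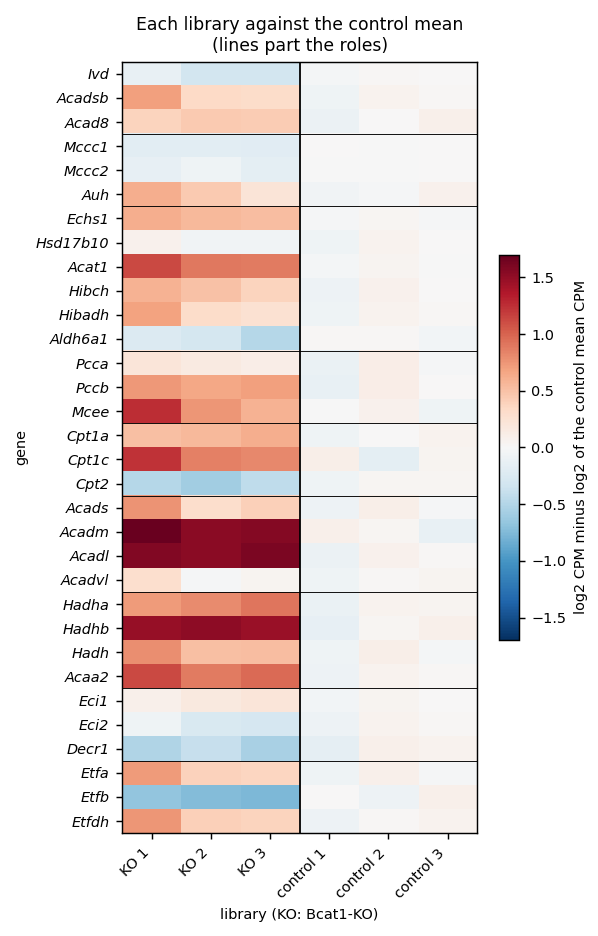
Log2 CPM of each of the 32 genes in each of the 6 libraries, minus the log2 of that gene's control mean (colour scale), with Bcat1-KO libraries at the left, control libraries at the right and lines between roles. Acadm, Acadl and Hadhb are the darkest red rows, and Mcee, Acads and Etfa are redder in Bcat1-KO replicate 1 than in replicates 2 and 3.

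Genes around these pathways, grouped in lists made with earlier results of these data known, gave a mixed picture. Of 21 tested nuclear receptors and coactivators of oxidation genes, 8 were higher in Bcat1-KO and 7 lower, and the median log2 change was -0.01. The lowest log2 change of this list was -0.858, and the genes named from it below are all among the higher ones. Their part in the changes of the oxidation enzymes was not tested. Ppargc1a, the coactivator that drives mitochondrial and fatty acid oxidation genes in many tissues, had 69.9, 62.4 and 66.3 CPM in Bcat1-KO, against 4.04, 3.53 and 3.75 CPM in control. That was a 17.5-fold rise with the groups far apart (log2 4.13, SE 0.09, adjusted p = 9.3e-12, edgeR). Esrrg, an estrogen-related receptor, rose to 4.18 ± 1.71 CPM in Bcat1-KO against 1.64 ± 0.329 CPM in control, and Nrip1, a corepressor, to 52.2 ± 2.11 CPM against 27.0 ± 2.67 CPM in control. Esrra, the receptor through which Ppargc1a is known to act on oxidation genes, is named here after its values were seen, and averaged 65.7 ± 4.63 CPM in Bcat1-KO and 42.9 ± 1.81 CPM in control (log2 0.61, SE 0.07, adjusted p = 1.71e-05, edgeR). Of the other genes known as PPAR targets, 3 of 9 tested were higher and 5 lower. Fgf21, a secreted metabolic hormone, fell to 8.75 ± 0.681 CPM in Bcat1-KO against 34.8 ± 3.06 CPM in control, and Plin2, a lipid droplet protein, to 50.5 ± 3.55 CPM against 89.1 ± 4.85 CPM in control. Acot1, an acyl-CoA thioesterase, rose to 20.0 ± 4.31 CPM in Bcat1-KO against 1.97 ± 0.0855 CPM in control.

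The other mitochondrial fatty acid oxidation genes had 8 of 15 tested members higher and 3 lower. Acad10, a further acyl-CoA dehydrogenase, rose to 7.35 ± 0.553 CPM in Bcat1-KO against 3.11 ± 0.353 CPM in control, and its relative Acad12 to 2.24 ± 0.41 CPM against 0.740 ± 0.194 CPM in control. Echdc2, a hydratase-like protein, fell to 5.88 ± 0.236 CPM in Bcat1-KO against 35.1 ± 0.367 CPM in control. Of the peroxisomal beta-oxidation genes, 10 of 18 tested were higher and 5 lower. Crot, which makes carnitine esters in peroxisomes, rose to 54.1 ± 8.03 CPM in Bcat1-KO against 18.4 ± 1.83 CPM in control, while Acox2, an oxidase for branched chains, fell to 0.180 ± 0.0133 CPM against 2.17 ± 0.273 CPM in control. Phyh, which starts the oxidation of phytanic acid, had 0 counts in Bcat1-KO and 10.5 ± 0.804 CPM in control, at least 388-fold lower against a floor of 3 counts over the Bcat1-KO group. In fatty acid uptake, binding and activation, 9 of 17 tested genes were higher and 4 lower, among them Fabp7, a binding protein of radial glia, at 188 ± 3.54 CPM in Bcat1-KO and 6.26 ± 1.10 CPM in control. Acsbg1, an acyl-CoA synthetase of brain, rose to 192 ± 15.1 CPM in Bcat1-KO against 41.5 ± 1.05 CPM in control, and Fabp3, a fatty acid binding protein of heart and muscle, fell to 1.47 ± 0.151 CPM against 4.56 ± 0.0843 CPM in control.

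Genes of malonyl-CoA and AMPK control had 5 of 11 higher and 2 lower. Prkaa2, an AMPK catalytic subunit, rose to 18.6 ± 1.37 CPM in Bcat1-KO against 4.49 ± 0.213 CPM in control, Prkab1, a regulatory subunit, to 41.7 ± 3.71 CPM against 24.8 ± 0.519 CPM in control, and Acacb, the mitochondrial acetyl-CoA carboxylase, to 4.57 ± 1.11 CPM against 2.45 ± 0.316 CPM in control. For flavin supply and electron transfer upkeep the count was 6 of 9 higher and none lower. Lyrm5, a regulator of electron transfer flavoprotein, was higher, at 32.4 ± 2.75 CPM in Bcat1-KO and 18.7 ± 1.13 CPM in control. It lies on chromosome 6 from 145211134 to 145216939, near the targeted gene Bcat1 (from 144993835 to 145076184). The part of this position in its rise was not tested. Sardh, a sarcosine dehydrogenase that feeds the same flavoprotein, rose to 191 ± 10.1 CPM in Bcat1-KO against 123 ± 2.32 CPM in control, and Slc25a32, the mitochondrial folate and flavin carrier, to 22.1 ± 1.83 CPM against 14.5 ± 0.517 CPM in control. Among markers of mitochondrial content 9 of 19 were higher and 1, the import receptor Tomm20, lower, at 181 ± 1.10 CPM in Bcat1-KO and 285 ± 10.01 CPM in control. Atp5a1, an ATP synthase subunit, averaged 823 ± 153 CPM in Bcat1-KO and 515 ± 20.6 CPM in control, and Uqcrc2, a complex III subunit, 194 ± 20.5 CPM in Bcat1-KO and 130.2 ± 6.68 CPM in control, both higher.

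The other branched-chain and propionate genes had 9 of 15 tested members higher and 2 lower. Mmab, which prepares the cobalamin cofactor for the step after Mcee, rose to 46.6 ± 3.54 CPM in Bcat1-KO against 21.5 ± 1.31 CPM in control. Bdh1, the mitochondrial ketone body dehydrogenase, rose to 40.4 ± 6.27 CPM in Bcat1-KO against 11.3 ± 0.18 CPM in control, and Acat2, a cytosolic thiolase, to 54.6 ± 15.4 CPM against 17.8 ± 1.04 CPM in control. Upstream, at the aminotransferase and ketoacid dehydrogenase steps, 4 of 9 were higher and 4 lower, with the targeted gene Bcat1 counted among the lower. Bcat2, the mitochondrial aminotransferase, fell to 53.0 ± 2.65 CPM in Bcat1-KO against 127 ± 7.11 CPM in control. Ppm1k, the phosphatase that switches the ketoacid dehydrogenase on, fell to 7.73 ± 1.03 CPM in Bcat1-KO against 12.9 ± 1.86 CPM in control, and Bckdk, the kinase that switches it off, rose to 37.6 ± 5.71 CPM against 24.9 ± 1.5 CPM in control.

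**Figure D5:**
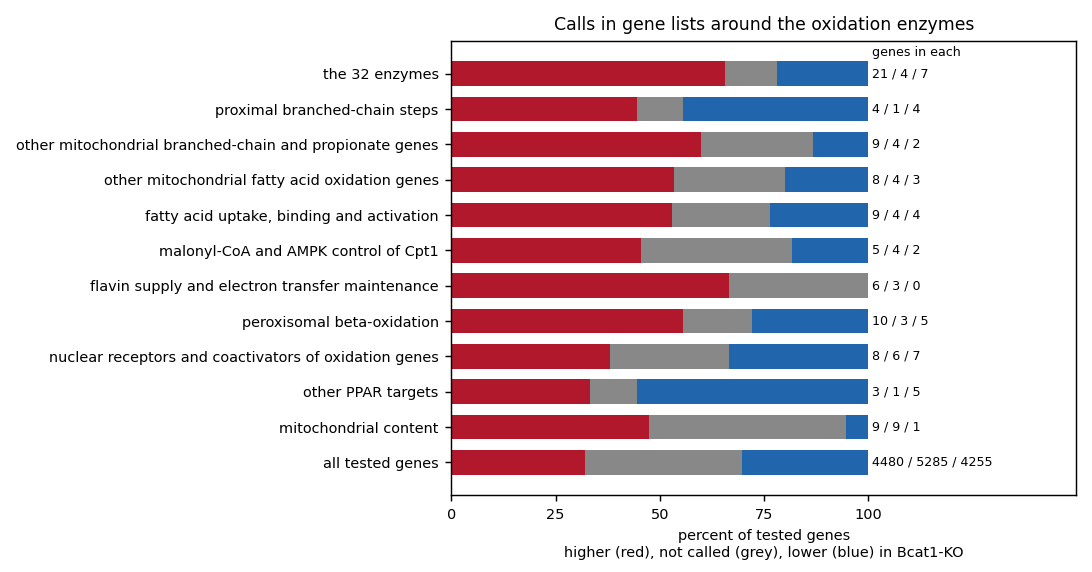
Percent of tested genes that were higher (red), not called (grey) and lower (blue) in Bcat1-KO against control by edgeR's test, for the 32 enzymes, for 10 lists of related genes and for all tested genes, with the counts (higher / not called / lower) at the right. The 32 enzymes had 21 higher and 7 lower, and all tested genes 4480 higher and 4255 lower. The list of proximal branched-chain steps counts the targeted gene Bcat1 among its lower genes.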

How the data were processed

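Total RNA of 3 Bcat1-KO and 3 control libraries was prepared with a stranded mRNA kit, per the labels' protocols. The submitters' processing notes name STAR 2.5.3a, featureCounts and the mm10 build; the annotation release and the handling of shared reads are not given in the sources used here. The deposited counts are raw reads per gene, and those on the reverse strand, 96.4% to 96.5% of stranded reads, were used. The authors' TPM values, per exonic length and scaled over all genes of a library, gave levels between genes and ratios within a library.

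Genes were filtered with edgeR 4.0.16's expression filter (14020 kept), scaled by TMM and tested with its quasi-likelihood test, no covariate, Benjamini-Hochberg over all tested genes at 0.05. CPM values are TMM-scaled and SE is that of the log2 fold change. The biological coefficient of variation was 8.26%. Ratios used exact permutation tests (scipy 1.17.1). Near-identical copies were sought among GENCODE M21 transcripts, and promoters came from RefSeq (GRCm38.p6). Alternatives included DESeq2 1.42.0 and limma 3.58.1. All 32 genes were named under their role. Per-library values were given for those with a called log2 change of at least 0.8, the most abundant and the subunit pairs. For some others they were given for context. Other pathway lists gave at most 3 called genes, the largest changes where log2 CPM averaged 0 or more. Esrra and Rbfox3 were named outside this rule, after their values were seen. Members and lists were chosen with earlier results of these data known. Intervals and floors cover counting error only. Analyses used R 4.3.3 and Python 3.11.15.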

Additional observations from a re-analysis of the deposited data

Results flagged for a closer look

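Reads on the strand opposite to Hadha, which entered no comparison, were higher in every Bcat1-KO library than in every control library, with a mean of 5.99 CPM in Bcat1-KO and 4.82 CPM in control; Garem2 overlaps the 3′ end of Hadha on that strand by 75 bases and averaged 94.4 CPM in Bcat1-KO and 70.0 CPM in control. The same held for Pcca, with a mean of 1.54 CPM in Bcat1-KO and 1.16 CPM in control; Ggact overlaps Pcca on the other strand and averaged 6.81 CPM in Bcat1-KO and 5.24 CPM in control. For Etfdh the reads on the opposite strand went the other way, at 2.84, 2.09 and 2.14 CPM in Bcat1-KO and 2.85, 2.98 and 3.11 CPM in control. There 4930579G24Rik overlaps Etfdh on the other strand and averaged 12.7 CPM in Bcat1-KO and 15.1 CPM in control. Groups of 3 libraries are too small for a formal test of single outlying libraries, so the only check was to refit without each library in turn.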

How the results depend on the processing

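Each of the 32 genes was recomputed under 19 alternatives, 608 values in all, of which 552 kept their direction and side of the threshold, 43 lost the call, 7 gained one and 6 changed sign. Against a 1.5-fold threshold the number of the 32 genes higher was 8 and lower 0 (edgeR; 1 lower at an unadjusted p under 0.05, against 7 lower with DESeq2 and limma-voom without that threshold), and over all genes 1564 were higher and 1481 lower, since that test asks for larger changes. Leaving out one library at a time, 20 to 21 of the 32 were higher and 5 to 8 lower, and 3871 to 4589 of all genes were higher and 3846 to 4741 lower. Sign changes were found for Mccc2 (log2 0.11), Aldh6a1 (0.22) and Eci1 (-0.007) relative to the local median of 51 genes, and for Hsd17b10 with limma-trend on TPM (0.037). Leaving out one library gave -0.08 to 0.005 for Hsd17b10, positive without control replicate 2, and -0.008 to 0.164 for Acadvl, negative without Bcat1-KO replicate 1. The cause was not tested. With 0.1 added to each TPM, with counts per kilobase and without each library in turn, all 5 ratios of partner genes kept their sign.

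The shared replicate numbers were not shown to pair the libraries, since same-numbered libraries had deviations from the group means that correlated at -0.0508, -0.0730 and 0.156. With a replicate block 21 of the 32 genes were higher and 7 lower, and 4448 and 4214 of all genes, and with the block and a gene length offset 20 and 7 of the 32.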
